A study of Mus musculus with 4 samples.

Results

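The genes described here are 8 members of the S100 family (S100a1, S100a4, S100a6, S100a8, S100a9, S100a10, S100a11 and S100a13), out of 19938 mouse genes that had a probe set of their own on the arrays. They were gathered around S100a1, which was chosen because its value was higher in Ikaros-deleted cells, and the question was whether its neighbours in the S100 gene cluster shared that difference. Each gene was taken from probe sets whose annotation gives exactly 1 gene symbol. Where there was more than 1 such probe set, as for S100a11, the one with the highest mean over all mice was used. The cells were DN4 thymocytes, immature T cells without CD4 and CD8 at the latest such stage. They came from 4 mice homozygous for a floxed allele (Ikf/f) of Ikzf1, which encodes the transcription factor Ikaros. The 2 Cre+ mice (129 and 135) also carried Rosa26-CreERT2, a Cre recombinase that tamoxifen activates, and the 2 Cre- mice (131 and 137) had the floxed alleles without it. All 4 received tamoxifen at 50 mg/kg each day for 4 days, with the analysis 24 h after the final dose, and total RNA of each mouse was hybridised to 1 Affymetrix mouse gene array. The Rosa26 locus is active in most cell types, so deletion is not limited to thymocytes, and loss of Ikaros cannot be told apart from the presence of active Cre.

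S100 proteins are small calcium sensors with a pair of EF-hand loops. They work mostly as dimers that change shape on binding calcium and then grip partner proteins, among them annexins, cytoskeletal proteins and, outside the cell, receptors such as RAGE and TLR4. Most S100 genes lie side by side in 1 cluster, on chromosome 3 in the mouse, yet each is known for its own tissues. S100a1 is best known from heart and skeletal muscle, where its protein binds the ryanodine receptor and the calcium pump SERCA. S100a8 and S100a9 encode calprotectin of neutrophils, and S100a10 encodes p11, the partner of annexin A2. Ikaros binds DNA at sites with the core GGGAA and is known in thymocytes both as a repressor and as an activator.

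The start of S100a1 is shown because the gene stood apart from the others in expression and because Ikaros is the factor that was deleted. The window of 300 bases runs from 250 before to 50 after the RefSeq transcript start and lies at chr3:90514281-90514580 of GRCm38.p6, on the minus strand. Capitals mark the Ikaros core, GGGAA on the printed strand or TTCCC where it reads on the opposite strand.
S100a1: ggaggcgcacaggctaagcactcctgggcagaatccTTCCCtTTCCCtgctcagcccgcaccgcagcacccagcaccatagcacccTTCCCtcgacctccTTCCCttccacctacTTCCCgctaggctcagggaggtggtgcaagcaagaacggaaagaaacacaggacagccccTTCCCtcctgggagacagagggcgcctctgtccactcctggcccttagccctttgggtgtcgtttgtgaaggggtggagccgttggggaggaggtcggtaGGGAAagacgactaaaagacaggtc
The core occurred 7 times in this window, 6 times before the transcript start and once after it. Of 32851 windows of this length in the RefSeq table, 62.7% held at least 1 core on either strand and 0.0183%, or 6 windows, held 7 or more. The other 5 belonged to Gm41976 with 11 cores, Gm34502 with 8, and Madcam1, Vrk1 and Zbed6 with 7 each. These genes are named because their windows held 7 or more. Of them, Madcam1 and Vrk1 had a probe set of their own, with log2 differences between Cre+ and Cre- mice of -0.085 (SE 0.095) and 0.15 (SE 0.07). Neither passed a threshold. A match to these letters describes the sequence and does not show that Ikaros binds there.

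The nearest gene in the cluster, S100a13, starts 105 bases away on the plus strand and is transcribed in the opposite direction, so the 2 start windows overlap by 204 bases. All 4 cores in the S100a13 window are among the 7 in the S100a1 window, and the other 3 of S100a1 lie beyond its reach. Of all windows, 2.31% held 4 or more cores. Among the other S100 genes with a window, S100a9 had 4 cores, S100a6 had 3, S100a4 had 2, and S100a8 and S100a11 had 1 each. S100a10 had no window in the table.

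**Figure D1:**
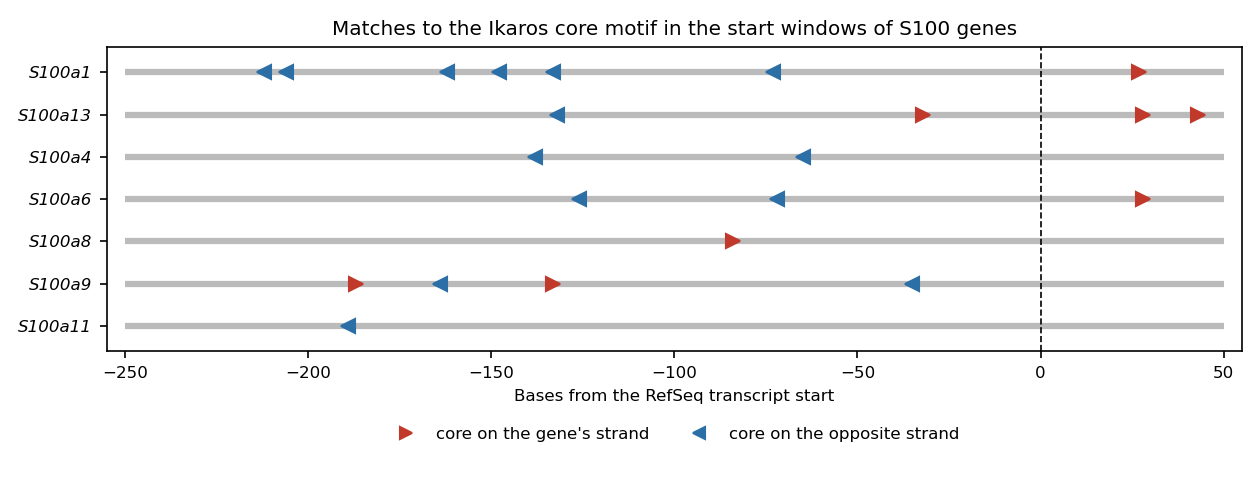
Positions of the Ikaros core in the start windows of 7 S100 genes, in chromosome order, as bases from the RefSeq transcript start (dashed line). Arrowheads pointing right mark cores on the strand of the gene and those pointing left mark cores on the opposite strand. The S100a1 window holds 7 and the window of its neighbour S100a13 holds 4.

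The arrays gave 1 log2 value per probe set and mouse, made by the authors with RMA. Values ranged from 3.14 to 14.4, with array medians from 6.85 to 6.88 and lower quartiles from 5.39 to 5.42. Each value comes from 1 array, and the 2 arrays a group limit the precision. Thy1, a pan-thymocyte marker, was at 13.23 and 13.12 in Cre+ mice and at 13.14 and 13.19 in Cre- mice, and Ikzf1 itself at 12.06 and 11.99 in Cre+ mice against 12.07 and 12.11 in Cre- mice, from probes whose place relative to the floxed part was not analysed here. Each group held 1 female (129, 131) and 1 male (135, 137) by Xist and Y-linked transcripts. All probe sets were compared with limma, with p-values adjusted by Benjamini-Hochberg. Of 35556 probe sets 0 (0%) had an adjusted p under 0.05 and 2356 (6.63%) an unadjusted p under 0.05. The same model was also fitted anew to the 21789 probe sets with 1 gene symbol alone, here called the restricted test. Its shared variance and its adjustment both come from those probe sets, so its p-values differ before adjustment too. In it 266 (1.22%) passed, 204 higher (0.936%) and 62 lower (0.285%). That count was 138 without mouse 129, 480 without mouse 131 and 565 with sex as a block. Differences below are log2 values of Cre+ mice minus those of Cre- mice.

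S100a1 had values of 8.64 and 8.28 in Cre+ mice 129 and 135, against 6.70 and 6.81 in Cre- mice 131 and 137. Both Cre+ mice lay far above both Cre- mice, and the gap between the groups was several times the gap within either. The mean difference was 1.70 (SE 0.15), a 3.25-fold higher value, and it was the 10th largest rise in mean among the 19938 genes. It was 1.94 in the female pair and 1.47 in the male pair. Leaving out 1 mouse at a time gave 1.52 to 1.89. These values led to the choice of the gene and are given as a description, without a test. The fold is one of array values, since no measure of background was used here.

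None of the 7 other S100 genes had a difference near that of S100a1. A difference of 0.5 or more in either direction was found in 0 of the 7 and in 1.59% of all genes. Their median difference was 0.029, with a range from -0.29 to 0.20, against a median of -0.0087 over all genes. The means of 4 were higher and those of 3 lower, and 45.9% of all genes had a higher mean in Cre+ mice. In 2 of the 7 both Cre+ mice lay above both Cre- mice and in 2 both lay below, which was also the case for 16.1% and 20.3% of all genes. Of the 7, 0 passed limma's adjusted threshold over all probe sets, against 0% of all probe sets. At an unadjusted p under 0.05 there was 1, against 6.86% of all genes. The restricted test was passed by 1, against 1.22% of its probe sets. The 7 genes were chosen together with S100a1 and with results of these data known.

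**Figure D2:**
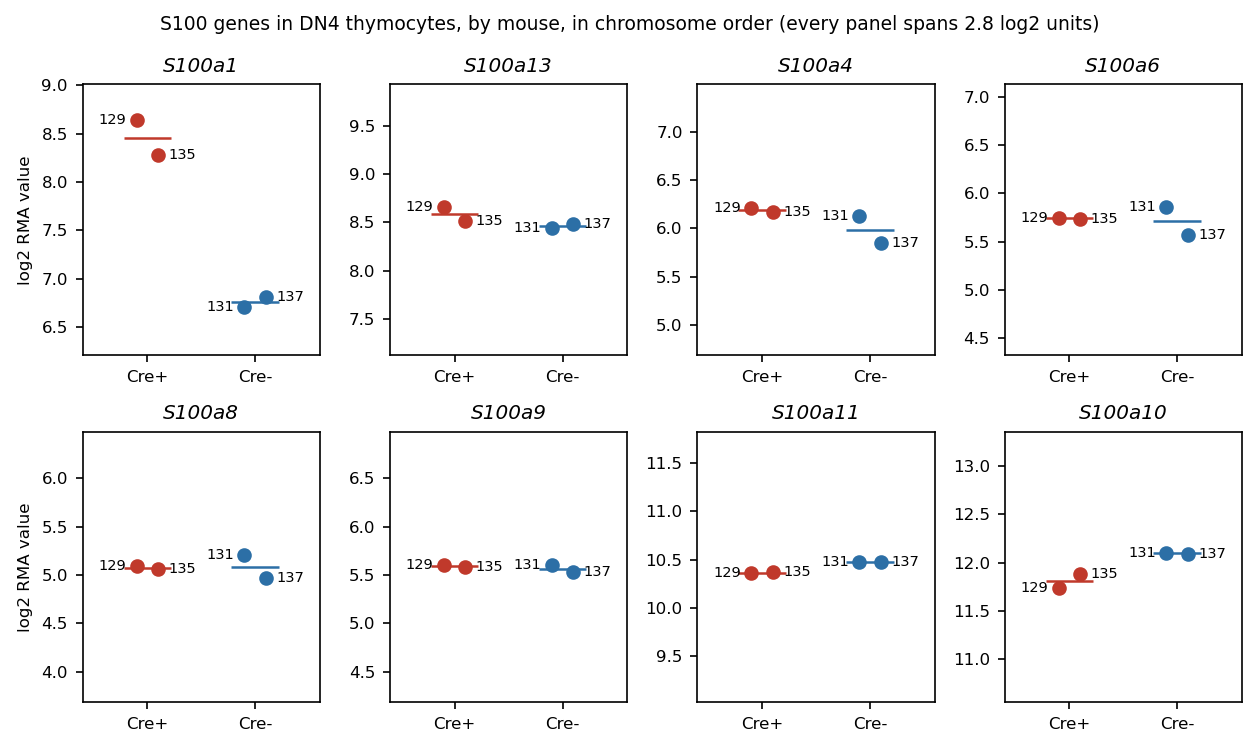
Log2 RMA values of the 8 S100 genes in each mouse, Cre+ (red) left of Cre- (blue), in chromosome order. Points are single mice labelled by number, horizontal lines are group means, and every panel spans the same range. S100a1 separates the groups at 8.64 and 8.28 against 6.70 and 6.81, while the other 7 genes differ by at most 0.29 in either direction.

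S100a13, whose protein takes part in the release of FGF1 and interleukin-1 alpha from cells, is the gene that shares its start region with S100a1. It was at 8.66 and 8.51 in Cre+ mice and at 8.44 and 8.48 in Cre- mice. The groups did not overlap, but the Cre+ mouse 135 lay only 0.036 above the Cre- mouse 137. The difference was 0.12 (SE 0.09), with a 95% interval from -0.12 to 0.37 and an adjusted p = 0.978 from limma. S100a1 minus S100a13 within each mouse was -0.018 and -0.24 in Cre+ mice and -1.74 and -1.67 in Cre- mice. This contrast between the neighbours, 1.58, involves the gene that was picked for its difference and was not tested.

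Of the 3 members with lower means in Cre+ mice, S100a10 differed most, ahead of S100a11 and S100a8. It was at 11.74 and 11.88 in Cre+ mice and at 12.10 and 12.09 in Cre- mice. Both Cre+ mice lay below both Cre- mice, and the Cre- mice were within 0.0066 of each other. The difference was -0.29 (SE 0.06), a 1.22-fold lower value, at -0.36 in the female pair and -0.21 in the male pair. S100a10 fell in the restricted test (limma, adjusted p = 0.0460) and did not pass over all probe sets (adjusted p = 0.377). The call in the restricted test was lost when mouse 129 was left out (-0.21, adjusted p = 0.107), and likewise for mouse 131 (-0.28, adjusted p = 0.0657) or mouse 137 (-0.29, adjusted p = 0.0693). It was also lost in a fit without an intensity trend (adjusted p = 0.283) and with array weights (adjusted p = 0.0528). It held without mouse 135 (-0.36, adjusted p = 0.00302) and with sex as a block (adjusted p = 0.0171), as well as under the other normalizations, filters and robust variances tried (adjusted p = 0.0308 to 0.0430).

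S100a11, which encodes a partner of annexin A1, lies next to S100a10 among the genes with a probe set, at the far end of the cluster. It was at 10.36 and 10.37 in Cre+ mice and at 10.48 and 10.48 in Cre- mice. Both Cre+ mice were thus lower by a small and even amount. The difference was -0.11 (SE 0.05), with a 95% interval from -0.25 to 0.023 and an adjusted p = 0.841 from limma. Its second probe set gave 10.24 and 10.25 in Cre+ mice against 10.34 and 10.37 in Cre- mice, a difference of -0.11 (SE 0.06). The 2 probe sets gave a like size and the same direction. Whether they share probes, or whether either reads another copy of the gene, was not analysed here.

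S100a4, also called metastasin or Fsp1 and known to bind non-muscle myosin IIA, was at 6.21 and 6.17 in Cre+ mice and at 6.13 and 5.85 in Cre- mice. The groups did not overlap, but most of the difference came from the low value of mouse 137. The difference was 0.20 (SE 0.13), with a 95% interval from -0.12 to 0.53 and an adjusted p = 0.935 from limma. Without mouse 137 it was 0.062 and without mouse 131 it was 0.34. S100a6, which encodes calcyclin, was at 5.74 and 5.74 in Cre+ mice and at 5.85 and 5.57 in Cre- mice. The Cre+ mice lay between the Cre- mice, and the difference was 0.029 (SE 0.12), with a 95% interval from -0.29 to 0.34.

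The calprotectin genes gave dim signals in all mice. S100a8 was at 5.09 and 5.06 in Cre+ mice and at 5.21 and 4.97 in Cre- mice, below the lower quartile of every array. S100a9 was at 5.61 and 5.59 in Cre+ mice and at 5.60 and 5.53 in Cre- mice, a little above that quartile. For both genes the groups overlapped. The differences were -0.0091 (SE 0.11, 95% interval -0.28 to 0.26) for S100a8 and 0.031 (SE 0.08, 95% interval -0.18 to 0.25) for S100a9. Detection above background was not analysed here.

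The genes on either side of S100a1 were read from the gene order of RefSeq's GRCm38.p6 table. The 15 nearest genes with a probe set on each side had a median difference of 0.016, from -0.17 to 0.24. Of these 30 genes, 17 had a higher and 13 a lower mean in Cre+ mice, and limma gave 2 of them an unadjusted p under 0.05, against 6.86% of all genes. With either adjustment, over the whole table or in the restricted test, 0 passed, against 0% and 1.22% of the probe sets tested. The nearest gene on the other side from S100a13 is Chtop, which encodes a chromatin-associated mRNA export factor, at 11.02 and 10.99 in Cre+ mice and at 10.88 and 10.99 in Cre- mice. Its difference was 0.067 (SE 0.06). The 2 with the smallest p were Jtb, a gene of a transmembrane protein, with a difference of -0.16 (SE 0.05), and Rab13, which encodes a small GTPase, with 0.24 (SE 0.09). They were followed by the zinc transporter gene Slc39a1 with 0.17 (SE 0.07) and S100a4.

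**Figure D3:**
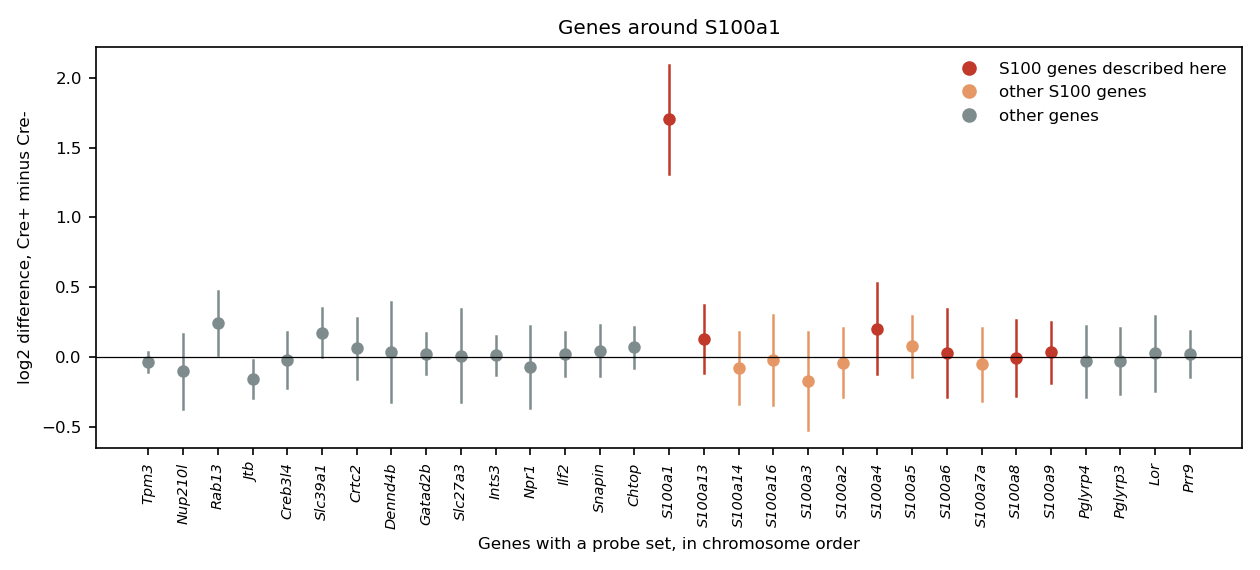
Log2 difference, Cre+ minus Cre-, for S100a1 and the 15 nearest genes with a probe set on each side, in chromosome order. Points are limma estimates and bars their 95% intervals, with 2 mice in each group. S100a1 stands at 1.70, and the 30 neighbours lie between -0.17 and 0.24.

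The 8 genes span a longer stretch that also holds the Sprr, Lce and filaggrin-like genes of the skin barrier. Between S100a1 and S100a10 the RefSeq table lists 101 genes with both ends included. In this stretch 54 genes other than the 8 had a probe set, with a median difference of -0.025 and a range from -0.17 to 0.092. None had an unadjusted p under 0.05, against 6.86% of all genes. Many of these genes gave dim signals, so a fall in them could be missed. Rptn, at 4.36 to 4.46, and Flg2, at 4.95 to 5.05, lay below the lower quartile of every array. Some were brighter, such as Lce1j at 8.35 to 8.51. The filaggrin-like genes carry an S100 domain fused to a long repeat protein. Of 6 measured, 3 were higher and 3 lower, with a median of 0.017, and Rptn, Flg2, Tchh and Tchhl1 differed by 0.060, 0.066, -0.052 and 0.058.

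The other S100 genes gave a like picture. Of 9 measured outside the 8, 3 were higher and 6 lower, with a median of -0.037. At an unadjusted p under 0.05 there were 0, against 6.86% of all genes, a count of little weight among so few. Only S100a7a, at 7.14 to 7.26, lay above the array median, and the others lay below it in every mouse. Whether they were detected above background was not analysed here. S100b, the glial S100 gene outside the cluster, was at 6.64 and 6.61 in Cre+ mice and at 6.46 and 6.54 in Cre- mice, a difference of 0.13 (SE 0.10). S100a3 differed by -0.17 (SE 0.14), S100a5 by 0.075 (SE 0.08) and S100a14 by -0.080 (SE 0.10). Together with the 8, 17 S100 genes were thus measured, and S100a1 had the highest difference among them. The gene was chosen for that difference, so its rank is a description.

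Annexins, the calcium-dependent membrane-binding proteins that S100 dimers link together, were compared next. Anxa2, whose protein forms a complex with p11, was at 12.32 and 12.19 in Cre+ mice and at 12.02 and 12.02 in Cre- mice. Both Cre+ mice were higher, by 0.24 (SE 0.05), while the partner gene S100a10 was lower. Anxa2 did not pass the restricted test (limma, adjusted p = 0.0587) or the test over all probe sets (adjusted p = 0.391). Anxa5, whose protein binds phosphatidylserine, was at 10.97 and 11.02 in Cre+ mice and at 10.50 and 10.67 in Cre- mice. It was higher by 0.41 (SE 0.08) and passed the restricted test (limma, adjusted p = 0.0366), but not the test over all probe sets (adjusted p = 0.349). Anxa9 differed by -0.35 (SE 0.09) and Anxa11 by 0.11 (SE 0.05) without passing. Of 12 annexins, 7 were higher and 5 lower, with a median of 0.029. At an unadjusted p under 0.05 there were 3, against 6.86% of all genes, and 1 passed the restricted test, against 1.22% of its probe sets. Anxa1, partner of S100a11, differed by 0.029 (SE 0.09) but was dim in all mice, at 4.96 to 5.12, below the lower quartile of every array.

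**Figure D4:**
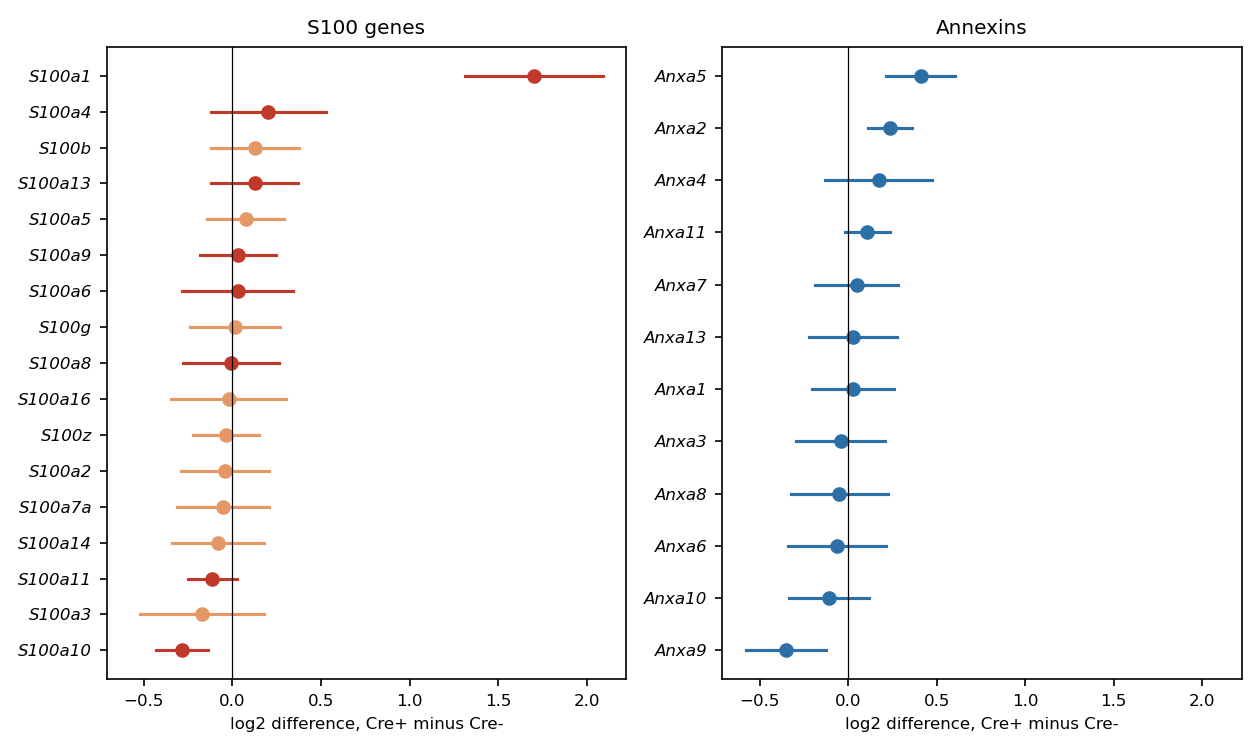
Log2 differences, Cre+ minus Cre-, of 17 S100 genes (left, the 8 described here in red and the other 9 in orange) and of 12 annexin genes (right), with limma's 95% intervals and 2 mice in each group. S100a1 stands at 1.70 and S100a10 at -0.29, and Anxa5 and Anxa2 stand at 0.41 and 0.24.

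Receptors and other partners of S100 proteins differed little. Of 29 measured, 11 were higher and 18 lower, with a median of -0.019. At an unadjusted p under 0.05 there were 3, against 6.86% of all genes. Over all probe sets and in the restricted test 0 passed, against 0% and 1.22% of the probe sets tested. Atp2a2, which encodes the SERCA2 pump bound by S100A1, was at 11.38 and 11.36 in Cre+ mice and at 11.46 and 11.56 in Cre- mice, a difference of -0.14 (SE 0.05, adjusted p = 0.702 in limma). The ryanodine receptor genes Ryr1 and Ryr2 differed by -0.047 (SE 0.10) and -0.045 (SE 0.09). The scaffold genes Ppfibp1, which encodes the S100A4 partner liprin beta 1, and Iqgap1 differed by 0.30 (SE 0.11) and -0.098 (SE 0.05), and the sugar phosphate enzyme gene Pgm2 by 0.22 (SE 0.08). Ager, the gene of RAGE, and Tlr4 differed by 0.022 (SE 0.15) and -0.027 (SE 0.09). Tlr4 was dim in all mice, at 4.34 to 4.55, below the lower quartile of every array.

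Other EF-hand calcium sensors were set beside the S100 genes. Of 27 measured, 9 were higher and 18 lower, with a median of -0.024, and 4 had an unadjusted p under 0.05, against 6.86% of all genes. Lcp1, which encodes the actin bundler L-plastin, was at 12.01 and 12.06 in Cre+ mice and at 12.30 and 12.34 in Cre- mice. It was lower by 0.29 (SE 0.03) and passed the restricted test (limma, adjusted p = 0.0117), but not the test over all probe sets (adjusted p = 0.169). The integrin-binding protein gene Cib1 differed by -0.23 (SE 0.06), and the calpain genes Capn2 and Capns1 by -0.32 (SE 0.10) and 0.14 (SE 0.05), without passing.

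The genes whose pattern over the 4 mice was nearest to that of S100a1 lay outside the cluster. Likeness was the Euclidean distance between log2 values centred on the mean of each gene, over 4 mice and 19938 genes. The nearest was Uaca, which encodes an ankyrin-repeat protein, at 9.05 and 8.76 in Cre+ mice and 7.27 and 7.29 in Cre- mice (distance 0.114). Lmcd1, a LIM-domain transcriptional cofactor gene, followed at 7.86 and 7.55 in Cre+ mice against 6.09 and 6.18 in Cre- mice (distance 0.138). In both, as in S100a1, mouse 129 was the highest and mouse 135 the second. The next were the zinc-finger gene Zfp948 (distance 0.214), the calcium channel subunit gene Cacng4 (0.251), the matrix protein gene Matn2 (0.270) and the membrane protein gene Tmem176a (0.339). Their differences ranged from 1.41 for Tmem176a to 1.85 for Zfp948. These genes were picked by the same values, so their likeness is a description.

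**Figure D5:**
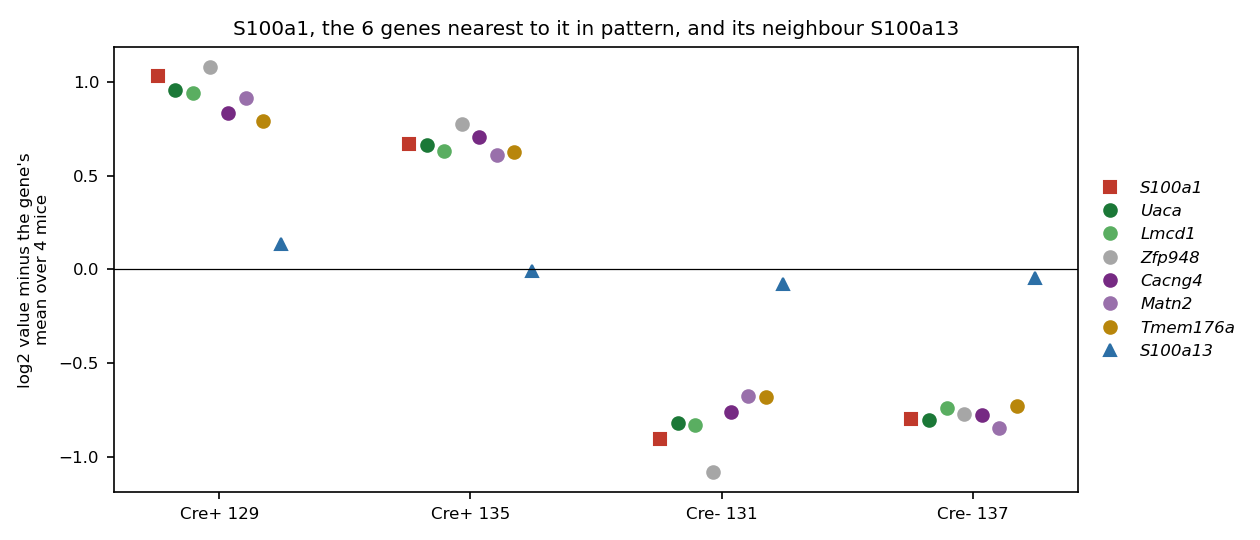
Log2 values minus the mean of each gene over 4 mice, for S100a1 (squares), the 6 genes nearest to it in pattern (circles) and its neighbour S100a13 (triangles), with the Cre+ mice left of the Cre- mice. S100a1 and the 6 genes share high values in both Cre+ mice and low values in both Cre- mice, while S100a13 stays close to its mean in all 4 mice.

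Several S100 genes are abundant in cells other than thymocytes, so markers of cells that a DN4 sort could hold were set beside them. In bulk RNA, fewer cells of a type and less RNA per cell cannot be told apart. Of 17 neutrophil and granule genes, 3 were higher and 14 lower, with a median of -0.062. Their summed level (log2 of the sum of linear values) was 9.66 to 9.70 in Cre+ mice and 9.71 to 9.76 in Cre- mice. Ly6g, Mmp8, Ctsg and Elane differed by 0.18, -0.15, -0.094 and -0.11. No gene of the list had an unadjusted p under 0.05, against 6.86% of all genes. Like S100a8 and S100a9, the granule genes Ngp and Ltf were dim in all mice, at 4.58 to 4.66 and 4.70 to 4.84.

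Monocyte and macrophage genes were higher in 10 and lower in 4 of 14 cases, with a median of 0.040. Their summed level was 9.77 to 9.92 in Cre+ mice and 9.64 to 9.66 in Cre- mice. Such a sum follows its brightest genes. The median level of the list was 5.65 and 5.60 in Cre+ mice 129 and 135, against 5.62 and 5.52 in Cre- mice 131 and 137. Lyz2, the lysozyme gene, was at 7.56 and 7.59 in Cre+ mice against 6.79 and 6.29 in Cre- mice, and rose by 1.04 (SE 0.18) in the restricted test alone (limma, adjusted p = 0.0206). Csf1r and Adgre1, which define macrophages, differed by 0.038 (SE 0.09) and 0.0088 (SE 0.08), and C1qc, C1qb and Ccr2 by 0.18, 0.26 and -0.10. The part of such cells in the S100 values was not tested.

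Genes of NK, effector and mature lymphocytes were set beside S100a10, which effector lymphocytes also express. Of 17 measured, 10 were lower and 7 higher, with a median of -0.054, and at an unadjusted p under 0.05 there were 1 higher and 4 lower, against 4.12% and 2.74% of all genes. Their summed level was 12.8 to 12.9 in Cre+ mice and 13.1 to 13.2 in Cre- mice. Nkg7, a cytotoxic granule gene, fell by 1.04 (SE 0.09) in the restricted test (limma, adjusted p = 0.00114), and Gzma, Itgae and S1pr1 differed by -0.19, -0.87 and -0.26 without passing. The part of such cells in the lower S100a10 value was not tested.

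Of 9 B cell genes, 3 were higher and 6 lower (median -0.18), with 4 at an unadjusted p under 0.05 against 6.86% of all genes. They included Igll1, which rose by 1.38 (SE 0.11), and Blk, which fell by 0.51 (SE 0.09), both in the restricted test, while Cd79a and Cd79b differed by -0.35 and 0.25. The summed level of the list was 11.03 and 10.89 in Cre+ mice and 10.79 and 10.75 in Cre- mice. Its median level went the other way, at 6.42 and 6.53 against 6.68 and 6.62. Dendritic cell genes (12 measured, 3 higher, median -0.020) had no member with an unadjusted p under 0.05, against 6.86% of all genes. H2-Aa, Cd74, Itgax and Ccr7 differed by -0.57, -0.47, -0.089 and -0.097. Thymic epithelial genes (11 measured, 4 higher, median -0.051) had Cdh1 and Epcam at -0.61 and -0.48, and Krt18 and Krt8 at 0.18 and 0.13, without passing. In this list 2 had an unadjusted p under 0.05, both lower, against 2.74% lower among all genes. Of 5 erythroid genes 4 were higher (median 0.027), and Tfrc, Epor, Klf1 and Slc4a1 differed by -0.25, 0.038, 0.034 and 0.027. Tfrc, the only lower one, had an unadjusted p under 0.05, against 2.74% lower among all genes. Of 20 thymocyte genes 11 were higher and 9 lower (median 0.024), and 11 had an unadjusted p under 0.05, 6 higher and 5 lower, against 4.12% higher and 2.74% lower among all genes. In the restricted test 4 passed, against 1.22% of its probe sets, and Cd3d, Cd3g, Cd3e and Rag1 rose by 0.66, 0.37, 0.25 and 0.38. The 5 lower ones did not pass it, with Cd8a at -0.61, Cd2 at -0.52, Cd44 at -0.42, Cd8b1 at -0.27 and Ptprc at -0.16. The part of thymocyte stage or makeup in the S100 values was not tested.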

How the data were processed

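Total RNA of sorted DN4 cells was labelled with biotin in a 2-cycle assay and hybridised to arrays (1 a mouse), per the labels' protocols. Per the submitters' processing notes, the authors used RMA, and the deposited table holds log2 values. That scale was inferred from their range. The sources used here give neither the version of RMA nor a filter or genome build. All sample columns of the table were used.

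Titles gave each sample its group by Cre, with 2 mice in each. The treatment text of all 4 names the Cre+ genotype, and the titles and the series' design text separate them. No further normalization was applied. Alternatives were other normalizations, filters on dim probe sets, variance models, array weights, sex as a block and leaving out each mouse. Genes were named through the platform annotation (21789 probe sets with 1 gene symbol, 1621 with several, 12146 not listed). Of the former, 21698 were found by gene number in RefSeq's table and 0 symbols changed. The 8 members have 9 probe sets with 1 symbol and 0 with several.

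Groups were compared with limma 3.58.1 in R 4.3.3 (lmFit, eBayes with an intensity trend, 2 residual and 2.99 prior degrees of freedom), with Benjamini-Hochberg adjustment over 35556 probe sets at 0.05. The script was tested on simulated data. No exact two-sided permutation test of 2 against 2 mice goes below p = 0.333, and limma's p-values depend on spread pooled over probe sets. The members and the 14 gene lists were chosen with earlier results of these data known. Named are the members, from each list the 4 genes of smallest p and those past a threshold, the 6 nearest to S100a1 in pattern, its nearest neighbours, and the 4 of smallest p around it. Other names were chosen as known partners or markers, after values were seen. Start windows come from RefSeq (GRCm38.p6), in which 7 of the 8 members matched by symbol. The core was searched on both strands, with overlaps counted.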

Additional observations from a re-analysis of the deposited data

Results flagged for a closer look

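2 of the 8 genes differed in opposite directions in the pair of each sex, with 1 Cre+ and 1 Cre- mouse a pair. S100a6 differed by -0.11 in the female pair and by 0.17 in the male pair. S100a8 differed by -0.11 in the female pair and by 0.095 in the male pair. These differences between the sexes were not tested, and both genes had dim signals.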

How the results depend on the processing

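No replicate number pairs the mice. Each group held 1 mouse of each sex, and with sex as a block S100a10 kept its call in the restricted test (adjusted p = 0.0171), while 0 probe sets passed over all probe sets. Of 171 values recomputed, 150 kept their direction and their side of the threshold, or moved by less than the spread between mice. The S100a1 difference did so under all 15 alternatives, at 1.52 to 1.89 when 1 mouse was left out and at 1.70 to 1.71 otherwise. Filters, variance models, array weights and sex as a block could not move a difference of group means, for S100a1 or for the other genes among the 171 values. Nor could a mean over probe sets for S100a1 or any other member except S100a11, since each of these has 1 probe set. Agreement under these settings was thus fixed in advance and lends no support. The number of probe sets past limma's adjusted threshold, 0 over all probe sets, was 10 with each array centred on its median, 25 and 80 with a mean above the 25th percentile and above the median, 266 among probe sets with 1 gene symbol, where 1 of the 7 S100 genes other than S100a1 passed (S100a10, -0.29, adjusted p = 0.0460), and 0 without any 1 mouse. The restricted test's 266 calls were 130 without an intensity trend, 565 with sex as a block and 138 to 480 when 1 mouse was left out. In it the count of these 7 genes past the threshold, 1, was 0 without an intensity trend and 0 with array weights, and 0 to 1 when 1 mouse was left out. Their median difference, 0.029, was -0.11 to 0.11 when 1 mouse was left out and -0.11 among probe sets with a mean above the median, where 3 of the 7 remained. S100a8, at -0.0091, was 0.00076 with centred arrays, 0.014 after quantile normalization again and 0.0069 after cyclic loess, and -0.13 to 0.11 when 1 mouse was left out. Leaving out 1 mouse also turned S100a6 (-0.11 to 0.17) and S100a9 (-0.0020 to 0.064). A group left with 1 mouse is assumed to vary like the other. Probe sets with several symbols gave no alternative, since none names a member. The cause of these moves was not tested. In the limited tests the adjustment ran over fewer probe sets and the shared variance was estimated anew. Dim signals limit S100a6, S100a8 and S100a9, as well as Tlr4, Anxa1 and many of the skin barrier genes.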
